A study of Mus musculus with 2 samples.

Results

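Lnpep, Nucks1 and Fam107b are 3 genes whose 3′ untranslated regions (3′UTRs) carried many Tia1 crosslink sites in activated mouse B lymphocytes. They were selected on 2 measured values, a high number of 3′UTR cDNAs and its spread over many sites with few cDNAs each, so their counts and the thinness of their sites are given here as a description and without a test. All sites on the strand of each gene in the pooled list of significant sites were taken, which gave 3935 sites with 10123 cDNAs in the gene bodies. Of these, 3831 sites with 9978 cDNAs lay in the 3′UTRs. The whole list held 422150 sites, and 7292 genes had at least 1 site in a 3′UTR, so the 3 genes held 1.47% of the 679043 cDNAs in 3′UTRs. The 5 highest clusters of sites held 42.5% of the cDNAs in Lnpep, 44.7% in Nucks1 and 85.4% in Fam107b. The median was 87.5% among the 241 genes with at least 500 cDNAs in their 3′UTR. This share was lower in genes with longer 3′UTRs (Spearman's rho −0.83 over the 241 genes). The part of the 3′UTR that clusters covered was also lowest in Lnpep and highest in Fam107b, with 56.9%, 61.6% and 68.7%. The median of the 241 genes was 33.0%.

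The study mapped where Tia1 touches RNA by iCLIP (individual-nucleotide crosslinking and immunoprecipitation) in splenic B cells of C57BL/6 mice cultured for 48 h with 10 μg per ml of lipopolysaccharide (LPS), a bacterial product that drives B cells to divide. Cells were crosslinked with UV light, and Tia1-bound RNA was recovered from cytoplasmic extracts. There was 1 group with 2 biological replicates, and no untreated, knockout or isotype control sample was analysed here. Sample titles name Tia1, while the antibody field of the labels names an anti-Tial1 antibody. The methods name a Tia1-specific antibody, and the antibody list of the study gives an anti-Tia1 antibody for iCLIP and the product named in the labels for western blots only, so the labels and the methods differ. Tial1 is a close relative of Tia1. No RNA level was measured in these samples, so more binding per transcript and more transcript cannot be told apart in any count below.

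Tia1 binds RNA through RNA recognition motifs, gathers in stress granules, holds back translation of the mRNAs it binds and also takes part in splicing. It prefers U-rich stretches, many of which lie in 3′UTRs. In iCLIP the reverse transcriptase stops at the crosslinked base, so each cDNA marks 1 nucleotide, and random barcodes allow copies of the same cDNA made by PCR to be removed. A site below is 1 nucleotide with at least 1 unique cDNA that passed the study's false discovery rate, and its height is the number of those cDNAs.

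Lnpep encodes a transmembrane zinc aminopeptidase of endosomal vesicles, which cleaves peptide hormones such as oxytocin and travels with the glucose transporter of insulin-responsive vesicles. Its gene lies on the minus strand of chromosome 17 (17521410 to 17625050, GRCm38), and its annotated 3′UTR is a single stretch of 8339 nt (17521410 to 17529748). Nucks1 encodes a nuclear, DNA-binding phosphoprotein related to the recombination factor Rad51ap1. It lies on the plus strand of chromosome 1 (131910534 to 131936321), with a 3′UTR of 5115 nt (131931207 to 131936321). Fam107b belongs to a small family with Fam107a and lies on the plus strand of chromosome 2 (3570488 to 3782142), with a 3′UTR of 2525 nt (3779618 to 3782142). None of these 3′UTRs was interrupted by an intron.

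The sequences that carried the most cDNAs, and for contrast a stretch without any high site, show what bound and thinly bound RNA looked like. Each is 29 nt of the GRCm38.p6 genome as held by RefSeq, written as RNA from 5′ to 3′, and capitals mark nucleotides with at least 3 pooled cDNAs. The first 3 lines are centred on the highest site of each gene.
Lnpep, chr17:17524613-17524641, minus strand: aAuUUUUUaaaCUUUUUgUUgUUacUUca
Nucks1, chr1:131936187-131936215, plus strand: uguccccuUUAUUUUUUUUCUCUugggga
Fam107b, chr2:3782014-3782042, plus strand: aUaaUUUaaUAUUUUUUgUAUUUgCUCUU
These windows held 189 cDNAs in Lnpep (134 in replicate 1 and 55 in replicate 2), 212 in Nucks1 (124 and 88) and 329 in Fam107b (245 and 84).

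The highest clusters of Lnpep and Fam107b contain the sites above, so their second highest clusters are shown with both of the highest clusters of Nucks1, each centred on the cluster's highest site.
Lnpep, chr17:17523719-17523747, minus strand: UUUaaaauaUaUUUUUUcauggUacUgau
Nucks1, highest cluster, chr1:131932110-131932138, plus strand: UCUUUUUUUUUUUUUaaguaggccaccag
Nucks1, second cluster, chr1:131934950-131934978, plus strand: ugaaccucCUUUUUUUuccCcCUuUGucU
Fam107b, chr2:3780898-3780926, plus strand: UUUUUUuugGCUUUUUUUUUCUUUUUUGU
The Fam107b window had 24 U among its 29 nt (82.8%) and held 360 cDNAs, 229 in replicate 1 and 131 in replicate 2. The Nucks1 windows held 168 and 135 cDNAs, and the Lnpep window held 89. In all of these windows most capitals stood in runs of U. A few others stood at C, G or A, except in the Lnpep window with 89 cDNAs, where all capitals were U.

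The windows with the most cDNAs among those without a site of 5 or more were chosen after their values had been seen.
Lnpep, chr17:17526435-17526463, minus strand: UUUugguaauGuucugucuucucaugUuu
Nucks1, chr1:131933725-131933753, plus strand: cuccuuccucUuuuccucugUcUUUuUcu
Fam107b, chr2:3780121-3780149, plus strand: cauUauaaaUUaagaaaggaggcuauuac
They held 31, 41 and 20 cDNAs, with no site above 4, 4 and 3 cDNAs. In Lnpep and Nucks1 they were still 58.6% U and were broken by C and G, whereas the Fam107b stretch was 27.6% U and had no cDNA called in replicate 2.

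Replicate 1 held more unique cDNAs, with 639108 unique cDNAs at 342732 significant sites against 165081 at 93512 in replicate 2, a ratio of 3.87. The pooled list held 867271 cDNAs. Over all 3′UTR sites the deposited position was a U in 73.9%, against 62.0% at the nucleotide before it and 58.9% at the nucleotide after it. Transcripts of all 7 B-cell marker genes looked at carried 3′UTR sites (3910 cDNAs, of which Pax5 had 1856), and both replicates held sites for 6 of them. Of 5 T-cell markers 1 had sites (4 cDNAs), of 4 myeloid markers 3 (44 cDNAs), of 4 erythroid markers 1 (28 cDNAs), and of 2 natural killer cell markers 0. These are binding counts on transcripts and not RNA levels.

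Lnpep had 4158 pooled cDNAs in its 3′UTR, 3417 called in replicate 1 and 642 in replicate 2, and ranked 3 of all genes. Nucks1 ranked 4 with 3489 cDNAs (2809 and 596), and Fam107b ranked 10 with 2331 (1818 and 482). Each count was below those of Actb (cytoplasmic actin, 5821) and B2m (the light chain of class I histocompatibility molecules, 5015). The other genes of the highest 10 were Serp1 (a protein of the endoplasmic reticulum, 2622), Tmsb4x (an actin-binding peptide, 2506), Pou2af1 (a B-cell transcriptional coactivator, 2503), Hnrnpa0 (an RNA-binding protein, 2378) and Scd1 (a fatty acid desaturase, 2332). The last of these differed from Fam107b by 1 cDNA, so their order has no meaning beyond counting error.

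Binding in the 3 genes was almost wholly in the 3′UTR. In Lnpep 97.6% of the 4262 cDNAs on the gene's strand lay there, with 74 in coding sequence, 24 in introns and 6 in other exons. The share was 99.1% of 3521 cDNAs in Nucks1 and 99.6% of 2340 in Fam107b. Of all 867271 cDNAs of the pooled list, in genes or outside them, 679043 lay in 3′UTRs. A high 3′UTR count chose the 3 genes, which favours a high share. Replicate 2 had 0 called cDNAs outside the 3′UTR in all 3 genes, and no significant site lay in the 1000 nt beyond any of the annotated gene ends. The few sites elsewhere were low, with at most 5 cDNAs at a nucleotide.

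Lnpep spread its cDNAs over 1823 sites, the highest number among the 241 genes with at least 500 cDNAs in their 3′UTR (median 287, range 27 to 1823). Nucks1 was second with 1324, and Fam107b was 11th with 684. Its highest single site held 24 cDNAs, 0.577% of the Lnpep total and the lowest such share of the 241 genes (median 2.94%), against 0.859% in Nucks1 and 2.57% in Fam107b. The 339 highest sites were needed to reach 50% of the Lnpep cDNAs, more than in any of the other 240 genes, whereas 223 were needed in Nucks1 and 79 in Fam107b, and the median gene needed 47. By these numbers Lnpep and Nucks1 lay at the broad end, and Fam107b ranked 50 of 241. The number of sites rose with 3′UTR length over the 241 genes (Spearman's rho 0.68), and a high count chose the 3 genes. As a share of a gene's own sites, those needed for 50% of the cDNAs were 18.6% in Lnpep and 16.8% in Nucks1. The share was 11.5% in Fam107b, and the median of the 241 genes was 16.3%.

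A strong site is here a nucleotide with at least 5 pooled cDNAs. Strong sites held 37.1% of the Lnpep cDNAs (191 sites, exact binomial 95% interval 35.7 to 38.6), 46.9% of those of Nucks1 (196 sites, 45.3 to 48.6) and 61.0% of those of Fam107b (124 sites, 58.99 to 62.99). The intervals cover counting error only. Counted within replicate 1 the shares were 30.9%, 38.9% and 52.6%, and within replicate 2 they were 12.9%, 16.3% and 43.8%. The order of the 3 genes was the same in both replicates.

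Thin sites were no property of these genes alone. The strong-site share ranked 74 from the lowest for Lnpep, 110 for Nucks1 and 165 for Fam107b among the 241 genes, whose median was 49.3% and whose range was 7.90 to 99.6%. Sites with a single cDNA made up 55.2%, 49.9% and 49.0% of sites, near the median of 53.4%. The strong-site share was lower in genes with longer 3′UTRs (Spearman's rho −0.75 over 241 genes, which share the same libraries) and higher in those with more cDNAs per kb (rho 0.80). Among the 106 genes with a 3′UTR at least as long as that of Fam107b the median share was 34.5%, and the 3 genes ranked 62, 84 and 96 from the lowest.

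**Figure D1:**
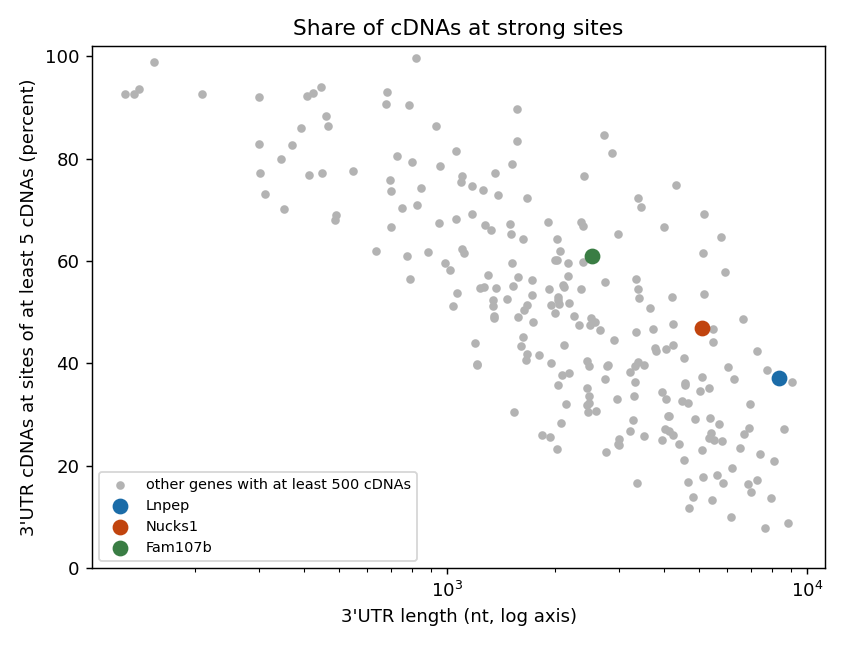
Percent of 3′UTR cDNAs at nucleotides with at least 5 pooled cDNAs against 3′UTR length on a log axis, 1 point for each of 241 genes with at least 500 cDNAs. Lnpep (37.1%, 8339 nt) and Nucks1 (46.9%, 5115 nt) lie above the median of 34.5% of the 106 long 3′UTRs, and Fam107b (61.0%, 2525 nt) lies above the median of 49.3%.

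Against the other 7 genes of the highest 10, all 3 had lower strong-site shares. Pou2af1 came nearest at 64.3%, followed by Serp1 (66.6%), Scd1 (70.6%) and Hnrnpa0 (78.9%), and Tmsb4x, Actb and B2m had 92.2%, 93.0% and 93.9%. The last 3 have 3′UTRs of 408, 683 and 448 nt, so the cDNAs of B2m fell at 11194 per kb, against 499 per kb in Lnpep, 682 in Nucks1 and 923 in Fam107b. The genes most like Lnpep in strong-site share, cDNAs per site and sites per 100 nt, by Euclidean distance over the 241 genes, were Top1 (a DNA topoisomerase, distance 0.142), Ptbp3 (a pyrimidine-tract-binding protein, 0.272) and Cltc (the clathrin heavy chain, 0.296). For Nucks1 they were Man1a (a mannosidase, 0.199), Cd38 (a surface enzyme of lymphocytes, 0.268) and Mbnl1 (an RNA-binding protein, 0.327), and for Fam107b they were Ssb (an RNA-binding protein, 0.171), Sept7 (a septin, 0.220) and Dek (a chromatin protein, 0.248).

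**Figure D2:**
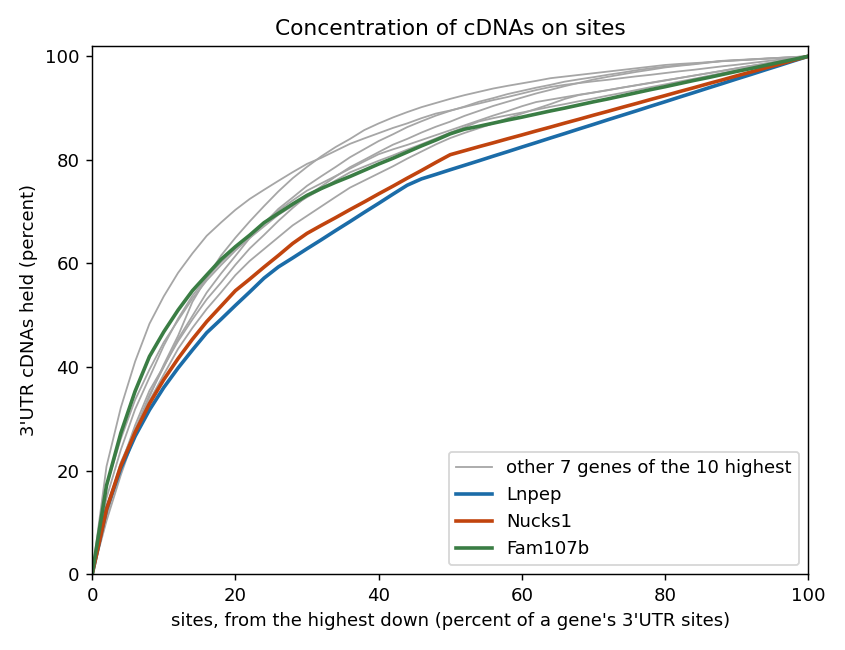
Cumulative percent of 3′UTR cDNAs against the percent of a gene's sites, taken from the highest site down, for the 10 genes with the most 3′UTR cDNAs. Lnpep and Nucks1 run below the other genes over most of the plot. Fam107b is second to Hnrnpa0 at 10% of sites (46.8% of cDNAs). At 60% of sites (88.2%) it lies below all genes but Lnpep and Nucks1.

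Sites stood close together in all 3 genes. The median distance between neighbouring sites was 1 nt in each (quartiles 1 to 4 in Lnpep and 1 to 3 in Nucks1 and Fam107b), and 50.2%, 55.6% and 52.3% of neighbours were adjacent nucleotides. The mean distance was 4.49, 3.78 and 3.61 nt, and the longest was 195, 223 and 80 nt. A site lay on 21.9 of each 100 nt in Lnpep, 25.9 in Nucks1 and 27.1 in Fam107b, against a median of 13.3 among the 241 genes. In replicate 2 the median distance was 3, 2 and 1 nt.

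Sites no more than 15 nt apart were joined into clusters. Lnpep had 67 clusters (rank 3 of 241), of median length 34 nt, which covered 56.9% of its 3′UTR, and 7 of them held 50% of its cDNAs. Nucks1 had 31 clusters of median length 73 nt over 61.6% of the 3′UTR, and 6 held 50%. Fam107b had 23 clusters of median length 48 nt over 68.7%, and 2 held 68.4%. The 5 highest clusters held 42.5% of cDNAs in Lnpep and 44.7% in Nucks1 (ranks 6 and 8 from the lowest), and their 85.4% in Fam107b was close to the median of 87.5% (rank 115). Replicate 2 had called sites in 30, 21 and 8 of the clusters, and no cluster was called in replicate 2 alone. The number of clusters rests on the gap, and a gap of 5 nt gave 280, 165 and 101.

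**Figure D3:**
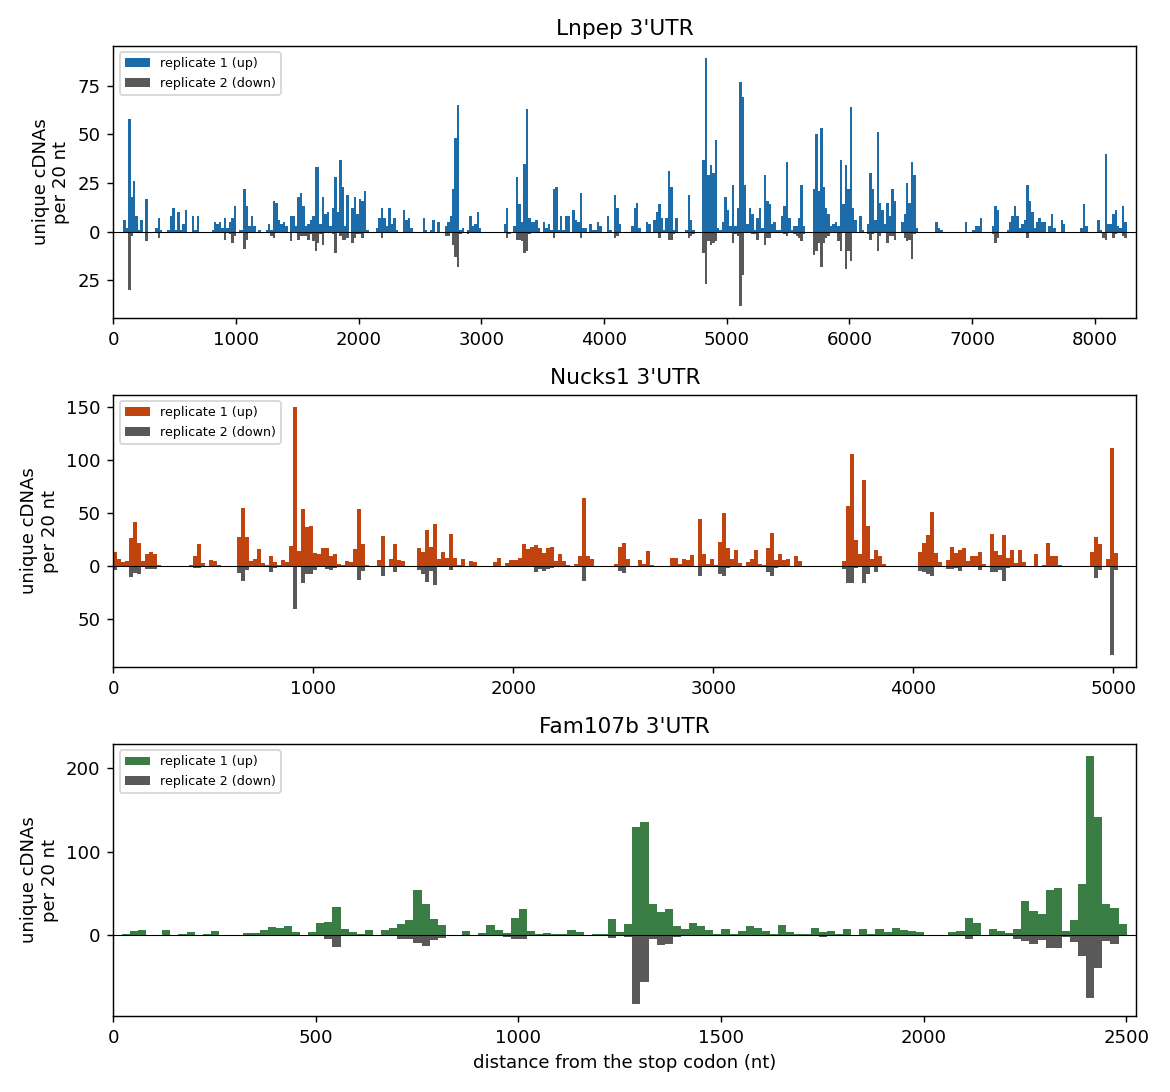
Unique cDNAs per 20 nt against the distance from the stop codon in nt, replicate 1 upward and replicate 2 downward, with a separate scale for each gene. Lnpep shows many low peaks with the cluster of most cDNAs at 4814 to 5413 nt, Nucks1 shows peaks at 918, 3758 and 4995 nt, and Fam107b shows 2 dominant peaks.

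In Lnpep the longest cluster ran for 600 nt (nt 4814 to 5413 after the stop codon) and held 792 cDNAs, 19.0% of the total. It took 18.5% of the replicate 1 cDNAs (631, exact 95% interval 17.2 to 19.8) and 23.2% of those of replicate 2 (149, 19.99 to 26.67). Inside it lay the highest site, nt 5122, where replicate 1 had 16 cDNAs and replicate 2 had 8, and the second highest, nt 4909, with 19 and 4. The third highest site stood far from these, at nt 126, where replicate 1 had 14 and replicate 2 had 8. Binding was not even along the 8339 nt, however, and 28 stretches of more than 50 nt without a site made up 29.9% of the 3′UTR. The longest of them, nt 2991 to 3184, was 29.4% U.

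In Nucks1 the highest cluster, nt 876 to 1125, held 487 cDNAs, and the second, nt 3657 to 3858, held 428. Their shares were alike in the replicates (14.1% and 14.6% for the first, 12.7% and 11.2% for the second). By exact 95% intervals that did not overlap, 2 of the 31 clusters had higher shares in replicate 2 and 2 in replicate 1. In Lnpep these numbers were 3 and 4 of 67 clusters, and in Fam107b they were 1 and 3 of 23. Cluster shares of a replicate count only sites called in it, and a thin site is called less often in the replicate with fewer cDNAs. The intervals do not cover this. One of the Nucks1 clusters higher in replicate 1 was nt 1979 to 2252, with 6.51% in replicate 1 and 3.19% in replicate 2. The third highest Nucks1 cluster was among those higher in replicate 2. At nt 4963 to 5007, close to the annotated end, 45 nt held 131 cDNAs in replicate 1, 4.66% of the total (3.91 to 5.51), and 89 in replicate 2, 14.9% (12.2 to 18.1). Its highest nucleotides, nt 4995, 4999 and 4994, had 14, 13 and 15 cDNAs in replicate 1 and 16, 15 and 12 in replicate 2, so 2 of these 3 were higher in replicate 2, the replicate with fewer cDNAs. Without replicate 2 the highest site of Nucks1 was nt 3758, which had 19 cDNAs there and 1 in replicate 2. The stretches that overlap and follow the third cluster, nt 4943 to 4993 and 5013 to 5114, contained 30-nt words present more than once in the genome, and their part in this difference was not tested.

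In Fam107b the 2 highest clusters lay at nt 2225 to 2497 and nt 1216 to 1469. The first held 738 cDNAs in replicate 1 (40.6%) and 226 in replicate 2 (46.9%, exact 95% interval 42.4 to 51.5). The second held 451 (24.8%, 22.8 to 26.9) and 174 (36.1%, 31.8 to 40.6). The highest site, nt 2411, was the first in both replicates, with 43 and 17 cDNAs. The next highest sites of replicate 2 all stood in the U-rich window of the second cluster, where nt 1305 had 12 cDNAs and nt 1298, 1299 and 1306 had 11 each, whereas the 3 next highest sites of replicate 1 stood in the first cluster.

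By position, Lnpep held 27.6% of its cDNAs in the third of the 3′UTR next to the stop codon, 40.8% in the middle and 31.6% in the third next to the poly(A) site, with 26.8%, 39.6% and 33.6% in replicate 2. Nucks1 held 39.9%, 24.1% and 35.97%, and in replicate 2 the middle fell to 15.4% with 42.3% on each side. Fam107b rose towards the poly(A) site, with 17.3%, 34.8% and 47.9%, and did so in both replicates (18.4%, 33.6% and 48.0% against 12.7%, 38.6% and 48.8%). The strong-site share was lowest near the stop codon in Lnpep (22.1%, against 45.5% and 39.5%) and in Fam107b (34.4%, against 61.3% and 70.4%), and lowest in the middle of Nucks1 (33.8%).

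The annotations give more than 1 end for these 3′UTRs. RefSeq ends the Lnpep 3′UTR at nt 2026, and 76.9% of the cDNAs lay beyond that point on 75.7% of the GENCODE length, 77.3% in replicate 1 and 75.2% in replicate 2. The density was 47.5 cDNAs per 100 nt up to that point and 50.6 beyond it. For Nucks1 a shorter GENCODE transcript ends at nt 1473, and 67.0% of the cDNAs lay beyond it (66.6% and 66.8% in the replicates) on 71.2% of the length. In Fam107b transcripts with 3′UTRs of 304 nt or less are annotated, and 98.7% of cDNAs lay beyond nt 304, with 0 called cDNAs before it in replicate 2. The polyadenylation hexamer AAUAAA, searched on the transcript strand, began 22 nt before the annotated end in Lnpep and 30 nt before it in Fam107b. In Nucks1 the last AAUAAA began 3312 nt before the end.

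U made up 36.6% of the Lnpep 3′UTR, 36.2% of that of Nucks1 and 31.9% of that of Fam107b, against a median of 33.1% among the 241 genes. In the 31 nt around sites the U share was 43.97%, 43.98% and 38.49%, which was 7.29, 7.72 and 6.41 percentage points above the mean of all windows of the same 3′UTR. These differences were below the median of 9.96 points (ranks 54, 62 and 35 from the lowest). That median counts each site once. Weighted by cDNAs, the differences were 10.8, 12.3 and 16.2 points. Around 27.4%, 29.9% and 29.7% of the sites the U share was below that of the whole 3′UTR. The crosslinked nucleotide itself was a U at 65.2%, 62.9% and 56.9% of sites.

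Higher sites lay in more U-rich sequence. In Lnpep the U share of the window rose from 41.5% around sites with 1 cDNA to 55.4% around the 45 sites with 10 or more, and the crosslinked nucleotide was a U at 53.5% and 97.8% of them. In Nucks1 the window went from 40.6% to 56.1% and the nucleotide from 45.5% to 96.4%, and in Fam107b they went from 33.5% to 57.1% and from 40.6% to 94.6%. Over all positions of the same 3′UTRs the mean window was 36.7%, 36.3% and 32.1% U. Sites with 1 cDNA were called in replicate 2 in 8.74%, 9.23% and 8.36% of cases, and sites with 10 or more in 93.3%, 89.1% and 98.2%. A site's height contains its replicate 2 count, so these last shares are not independent of it.

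Read the other way, more nucleotides carried a site where the U share around them was higher. In Lnpep 2.97 of each 100 nt had a site where U made up under 20% of the window, 17.3 where it made up 30 to 40%, and 56.9 where it made up 60% or more. Nucks1 went from 8.89 to 57.2 and Fam107b from 11.1 to 94.9 sites per 100 nt. The number of cDNAs per site rose only from 1.06 to 3.51 in Lnpep and from 1.43 to 4.07 in Nucks1, whereas in Fam107b it rose from 1.39 to 11.1. In Fam107b the 59 nt of highest U share, 2.36% of the windows, held 26.6% of the cDNAs, while in Lnpep 225 nt of that class (2.71%) held 10.8%.

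**Figure D4:**
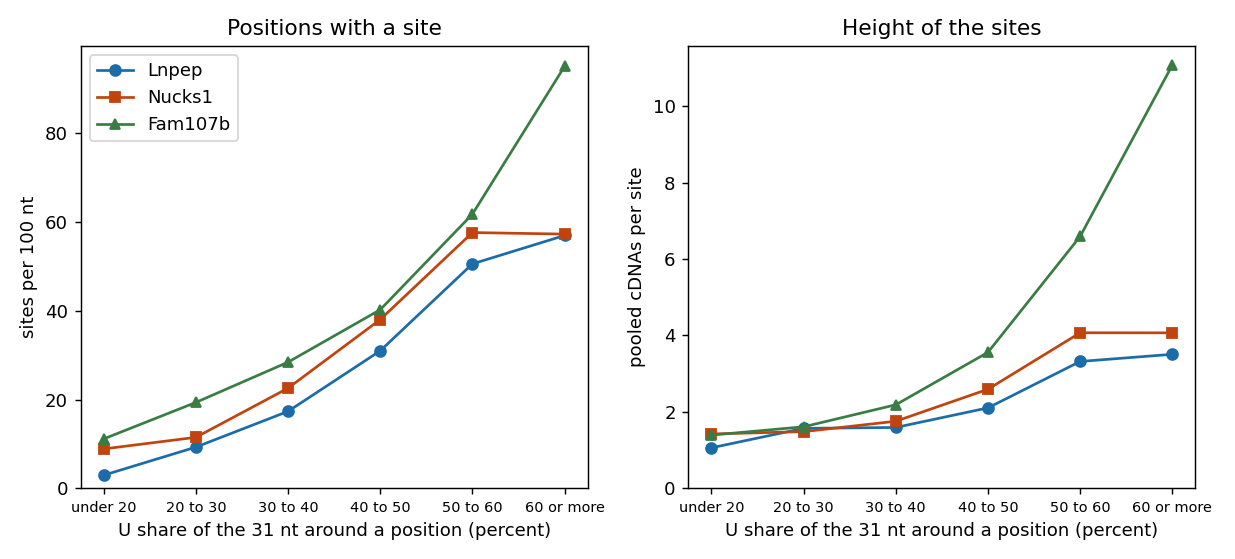
Sites per 100 nt (left) and pooled cDNAs per site (right) against the U share of the 31 nt around each position, in 6 classes, for each gene. Both are higher at high than at low U in all 3 genes, with no further rise above 50% in Nucks1, and the height of sites in the class of 60% or more is 11.1 cDNAs in Fam107b against 3.51 in Lnpep and 4.07 in Nucks1.

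Along the 3′UTR in bins of 200 nt every bin of all 3 genes contained a site (42, 26 and 13 bins), and replicate 2 had called sites in 31, 23 and 11 of them. Lnpep bins ran from 2.5 to 178 cDNAs per 100 nt with a median of 36, Nucks1 bins from 7 to 203 with a median of 65.5, and Fam107b bins from 12 to 458 with a median of 37.5. The highest bin held 8.56% of the cDNAs in Lnpep, 11.6% in Nucks1 and 25.1% in Fam107b. The U share of a bin and the log2 of its cDNAs per 100 nt plus 1 had Pearson's r of 0.66 in Lnpep, 0.49 in Nucks1 and 0.81 in Fam107b. In bins of 500 nt the Nucks1 value was 0.22. Bins of 1 transcript share library and neighbouring sequence, so these are descriptions. The lowest point of Nucks1 for its U share was the last bin (48.7% U, 13.9 cDNAs per 100 nt), most of which is sequence with repeated 30-nt words. The cDNAs per bin of the replicates had r of 0.93, 0.82 and 0.98.

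**Figure D5:**
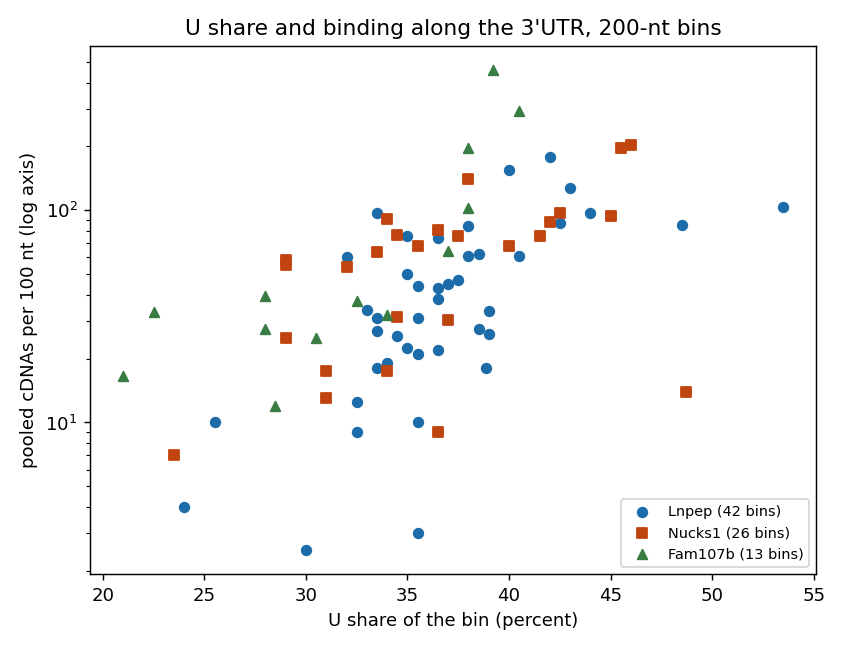
Pooled cDNAs per 100 nt (log axis) against the U share of 200-nt bins along the 3′UTRs, 1 point a bin. Density rises with U in all 3 genes, and the last Nucks1 bin (48.7% U, 13.9 cDNAs per 100 nt) stands apart.

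The motif UUUUU, searched on the transcript strand with overlaps allowed, lay within the 31 nt around 31.9% of Lnpep sites, 34.5% of Nucks1 sites and 18.1% of Fam107b sites. Of all windows of those 3′UTRs, 15.2%, 17.3% and 8.54% held it. Over the 241 genes the motif lay in 11.8% of windows and around 32.6% of sites. Weighted by cDNAs the shares were 45.2%, 50.7% and 42.7%, and around strong sites they were 60.2%, 69.7% and 45.2%. The element AUUUA, a core of AU-rich elements, lay around 6.97%, 8.88% and 10.1% of sites and in 5.16%, 6.78% and 4.21% of windows. In Fam107b it lay around sites with 26.0% of the cDNAs, and the window of its highest site, printed above, contains it.

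Soft-masked sequence (repeats and low-complexity stretches in RefSeq) made up 16.9% of the Lnpep 3′UTR, 22.4% of that of Nucks1 and 10.3% of that of Fam107b, and held 42.1%, 52.0% and 45.8% of the cDNAs. It was 47.5%, 47.6% and 47.1% U. Words of 30 nt that occur more than once in the genome covered 3.17% of the Lnpep 3′UTR with 3.37% of its cDNAs, 17.7% of that of Nucks1 with 18.1% of its cDNAs, and none of that of Fam107b. The sources used here do not give the treatment of reads with several matches in the genome, so the Nucks1 counts in those stretches are uncertain.

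The share of cDNAs that came from replicate 2 was 15.8% for Lnpep (exact 95% interval 14.7 to 17.0), 17.5% for Nucks1 (16.2 to 18.8) and 20.96% for Fam107b (19.31 to 22.68), against 21.05% over all 3′UTR cDNAs. For Lnpep and Nucks1 the interval lay below the overall share, as it did for 19.0 percent of the 2527 genes with at least 50 cDNAs, and it lay above for 13.8 percent. Because a thin site is called less often in the replicate with fewer cDNAs, the counts were also recovered at sites called in 1 replicate, by taking the called count from the pooled one. This was added after the data had been seen. The shares were then 16.6% (15.5 to 17.8), 18.5% (17.2 to 19.8) and 21.5% (19.9 to 23.3) against 22.2%, and intervals lay below for 15.5 percent of 2573 genes and above for 11.9 percent. Lnpep and Nucks1 thus lay below with both counts, as did many other genes.

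Most single sites were called in replicate 1 alone. Of the Lnpep sites 305 were called in both replicates, 1366 in replicate 1 alone and 97 in replicate 2 alone, and 55 were called on the pooled data only. Nucks1 had 283, 933, 70 and 38, and Fam107b had 169, 466, 35 and 14. Of the sites called in replicate 2, 75.9%, 80.2% and 82.8% were also called in replicate 1. Strong sites were called in both replicates in 71.2% of cases in Lnpep (136 of 191), 74.5% in Nucks1 (146 of 196) and 86.3% in Fam107b (107 of 124).

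Because the 3 genes were chosen for high counts, the lower counts of their relatives are given as a description only. The relatives and partners with sites had annotated 3′UTRs of 94 nt (Lta4h) to 2472 nt (Erap1). Of 7 aminopeptidases of the same family as Lnpep 4 had 3′UTR sites, namely Erap1, which trims peptides for class I molecules (78 cDNAs), Rnpep (33), Npepps (31) and Lta4h (31), while Anpep, Enpep and Trhde had none. Of 5 proteins that travel with Lnpep in vesicles only Vamp2 (42 cDNAs) and Lrp1 (3) had sites, and Slc2a4, Sort1 and Tbc1d4 had none. Rad51ap1, the relative of Nucks1, had 53 cDNAs (40 and 12 in the replicates), and Fam107a had none. Whether the transcripts without sites were present in these cells was not measured here.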

How the data were processed

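Tia1 iCLIP was analysed in 2 biological replicates of 1 group. Per the methods, the authors sorted reads by 3 known barcode bases, removed PCR copies with 4 random ones, mapped reads with Bowtie to mm9 and took the nucleotide before each read as the crosslink. They called sites with iCount at a false discovery rate of 0.05 (windows reaching 15 nt each way, 100 permutations) in each replicate and in the pooled data, and lifted the pooled list to mm10 (GRCm38). The deposited values are unique cDNA counts per nucleotide, signed by strand, of which the absolute value was used. Replicate counts were joined through the pooled mm9 list, which pairs with the lifted list row by row. Sites were placed in 3′UTRs of GENCODE M21, coding sequence taking precedence, and sequence came from RefSeq GRCm38.p6. Named genes were the 3 members, the other 7 of the 10 highest 3′UTR counts and the 3 genes most like each member. The members and gene lists were chosen with earlier results of these data known. With 1 group and no control there was no test over samples. Exact binomial intervals cover counting error only. Scripts ran under Python 3.11.15 (scipy 1.17.1, pandas 2.3.3, numpy 2.4.6, matplotlib 3.10.9) and were checked on simulated data. Alternatives were the 3′UTR annotation, all mapped crosslinks, the strong-site threshold, the cluster gap, window and bin widths, cDNA weighting and each replicate alone. Added after the data had been seen were the recovered replicate counts, the shorter 3′UTR ends, repeated words and masked sequence.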

Additional observations from a re-analysis of the deposited data

Results flagged for a closer look

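Crosslinks that did not pass the false discovery rate, which the comparisons above do not use, were present between the first and the last site of each 3′UTR. They came to 155 cDNAs in Lnpep, 147 in Nucks1 and 42 in Fam107b. With them included, 96.4%, 96.0% and 98.2% of the cDNAs mapped in that interval lay at significant sites. Over all mapped cDNAs of the pooled data the share was 54.8%. The interval, however, was itself bounded by significant sites in genes chosen for high counts. Most nucleotides that did not pass held a single cDNA (137, 113 and 28), and none held more than 4.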

How the results depend on the processing

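The values below are given in the order Lnpep, Nucks1, Fam107b. With a strong site of at least 3 cDNAs the strong-site share was 58.5%, 65.2% and 73.5%, and with at least 10 it was 14.7%, 21.5% and 42.5%. Among sites of at least 2 cDNAs the median spacing was 2 nt in Lnpep and Nucks1. A cluster gap of 5 nt gave 280, 165 and 101 clusters, with 23.1%, 32.3% and 68.3% of cDNAs in the 5 highest. A gap of 30 nt gave 41, 23 and 12 clusters, with 58.2%, 51.2% and 92.2% in the 5 highest. The U excess around sites was 12.003, 11.7 and 9.998 points in an 11-nt window, and 10.8, 12.3 and 16.2 points when sites were weighted by cDNAs. The correlation of U share and cDNAs over bins was 0.61, 0.58 and 0.77 with 100-nt bins, and 0.71, 0.22 and 0.84 with 500-nt bins.

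With 1 replicate left out in turn, ranges were as follows. The cDNA count ran from 642 to 3417, from 596 to 2809 and from 482 to 1818, which follows the cDNA totals of the replicates. The strong-site share ran from 12.9% to 30.9%, from 16.3% to 38.9% and from 43.8% to 52.6%, and the median spacing from 2 to 3, from 1 to 2 and from 1 to 2 nt. Cluster numbers ran from 54 to 73, from 35 to 38 and from 14 to 25, and the share of the 5 highest from 34.9% to 37.9%, from 42.5% to 42.6% and from 82.9% to 90.2%. The U excess ran from 7.43 to 13.0, from 7.73 to 15.2 and from 6.49 to 16.004 points, and the correlation over bins from 0.60 to 0.66, from 0.47 to 0.52 and from 0.81 to 0.83. Of 87 alternative values 48 moved and 39 did not. A value had not moved if it changed by less than 1 SD of the 2 replicates or, for numbers of clusters, by less than 1.5 times. That SD is coarse, since it comes from 2 replicates with a ratio of 3.87 in cDNAs, and the single-replicate values also enter it. Counts, shares and distances cannot change sign. The U excess and the correlation over bins could, and they stayed positive. In every setting the strong-site share was highest in Fam107b and lowest in Lnpep. No paired analysis was possible because there was only 1 group. The low cDNA total of replicate 2 limits thin sites most, since a site with 1 pooled cDNA can be called in 1 replicate at most.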
